A study of Homo sapiens with 6 samples.

Results

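Blood-enriched miRNAs were examined in MDA-MB-231 cells through the stem-loops mir-486, mir-451a, mir-144, mir-142, mir-223 and mir-150. Every row of the mature miRNA tables whose name held one of these 6 stem-loops or a numbered copy of one was taken, with both arms. This gave 5 of the 437 listed mature sequences, namely miR-486-5p, miR-142-5p, miR-142-3p, miR-144-5p and miR-150-5p. The stem-loops mir-451a and mir-223 had no row in either table, and a missing row was counted as 0 reads. Spheroid cells (3 samples) were grown without serum in suspension as three-dimensional aggregates, and parental cells (3 samples) were kept as adherent monolayers in RPMI-1640 medium with heat-inactivated fetal bovine serum. Both came from MDA-MB-231, an oestrogen-independent human breast adenocarcinoma cell line that stands for a basal, mesenchymal-like subtype, and no blood cells were part of either culture as the labels describe them. Small RNA was sequenced from TruSeq libraries on an Illumina HiSeq, and the reads of each mature sequence, its variants included, were deposited in 1 table per condition, with 1553014 reads for spheroid and 539798 reads for parental cells. As each table gives a single value per sequence, no replicate error can be given. The labels of all 3 samples of a culture name its table, whereas the sample sheet that accompanies the study lists the table at replicate 1 only, so it is not settled whether a table holds 1 sample or all 3.

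MicroRNAs are short RNAs that are cut from one or both arms of a hairpin and guide Argonaute proteins to messenger RNAs, mostly through bases 2 to 8, the seed. The miRNAs examined here are known as markers of blood lineages. miR-486-5p and miR-451a are among the most abundant miRNAs of red blood cells, and mir-144 and mir-451a are made from one erythroid transcript. miR-142 is found throughout the haematopoietic system, miR-223 marks the myeloid lineage and miR-150 marks mature lymphocytes. mir-486 differs from the rest in that it lies in ANK1, the gene of the red cell membrane protein ankyrin-1, which also has a muscle form.

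The mature sequences of mir-142 and mir-144, which carry most reads of the lowly read members, are shown first. Those of mir-223, which like mir-451a had no row, follow. They are given as RNA from RefSeq (GRCh38.p14), 5′ to 3′, with the seed in capitals. Sequences were matched for 3 of the 6 stem-loops, and those of mir-486, mir-451a and mir-150 are not shown because none was matched.
miR-142-5p: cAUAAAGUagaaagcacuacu
miR-142-3p: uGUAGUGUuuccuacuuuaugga
miR-144-5p: gGAUAUCAucauauacuguaag
miR-144-3p: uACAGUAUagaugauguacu
miR-223-5p: cGUGUAUUugacaagcugaguu
miR-223-3p: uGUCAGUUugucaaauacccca
All 6 seeds differ from each other. No other sequence listed in the tables shares the seed of miR-486-5p, miR-142-5p, miR-142-3p, miR-144-5p or miR-150-5p, so that each of these rows is the only one of its seed group. The hairpin of mir-142 (RefSeq, GRCh38.p14, chr17:58331232-58331318, minus strand) shows how the 2 arms face each other, with the mature arms in capitals.
mir-142: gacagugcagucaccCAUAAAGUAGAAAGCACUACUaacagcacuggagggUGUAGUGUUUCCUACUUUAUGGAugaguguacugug

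The mature sequences were placed by exact match on GRCh37, the build of the annotation that the authors used. Only chromosomes 8, 17 and 19 were searched, so a match elsewhere would not have been seen. miR-486-5p matched chromosome 8 at 2 places, from 41517962 to 41517983 on the plus strand and from 41518002 to 41518023 on the minus strand. Both lie in an intron of ANK1, which is read from the minus strand, and within the annotated miRNA gene MIR486. The 2 copies of the hairpin, listed as mir-486 and mir-486-2, thus overlap on opposite strands and give the same mature sequence. miR-142-5p lies on chromosome 17 from 56408644 to 56408664 and miR-142-3p from 56408606 to 56408628, both on the minus strand in an exon of the noncoding RNA gene MIR142HG. miR-144-5p was placed at 27188601 to 27188622 of chromosome 17, also on the minus strand, in an exon of a noncoding RNA gene. miR-150-5p lies on chromosome 19 from 50004089 to 50004110 within MIR150.

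Among the blood-enriched miRNAs, miR-486-5p was abundant in both cultures, whereas the others had few reads or none. miR-486-5p had 34829 reads in spheroid cells and 9450 reads in parental cells. As a level, this was 22427 reads per 1000000 reads of the table (rpm) in spheroid cells, with an exact binomial (Clopper-Pearson) 95% interval of 22194 to 22661 rpm, and 17507 rpm (17158 to 17860 rpm) in parental cells. It was the miRNA of rank 10 in spheroid and of rank 12 in parental cells. All intervals and floors given here cover counting error only, as each table gives a single value per sequence. They also treat reads as independent draws. The libraries were amplified by PCR with no molecular identifiers, so the intervals can be too narrow even for counting error.

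**Figure D1:**
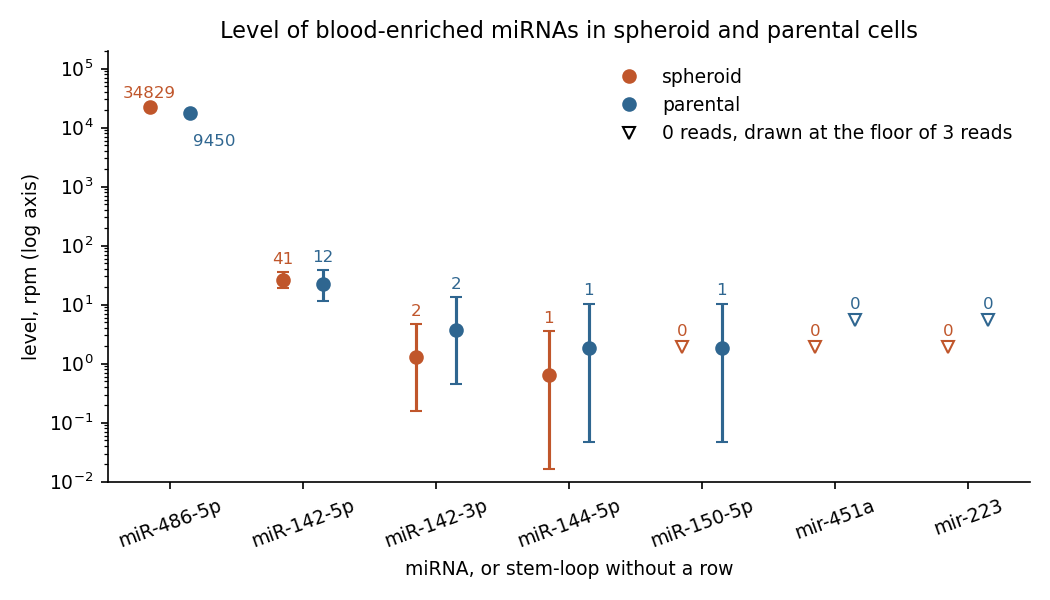
Level of each blood-enriched miRNA in rpm on a log axis, in spheroid and parental cells; points are the value of the table, bars the 95% binomial interval, and the numbers the reads. miR-486-5p stands at 22427 and 17507 rpm, miR-142-5p at 26.4 and 22.2 rpm, and the others at or under 3.71 rpm, with open triangles for 0 reads at the floor of 3 reads.

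The other members followed far below. miR-142-5p, the more abundant arm of mir-142, had 41 reads in spheroid and 12 reads in parental cells, at ranks 211 and 229. miR-142-3p had 2 reads in each table, and miR-144-5p had 1 read in each table. miR-150-5p had 0 reads in spheroid cells and 1 read in parental cells. These 4 rows together held 44 reads in spheroid cells and 16 reads in parental cells. Accordingly, miR-486-5p took 99.874% (interval 99.831% to 99.908%) of the member reads in spheroid cells and 99.831% (99.726% to 99.903%) in parental cells.

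**Figure D2:**
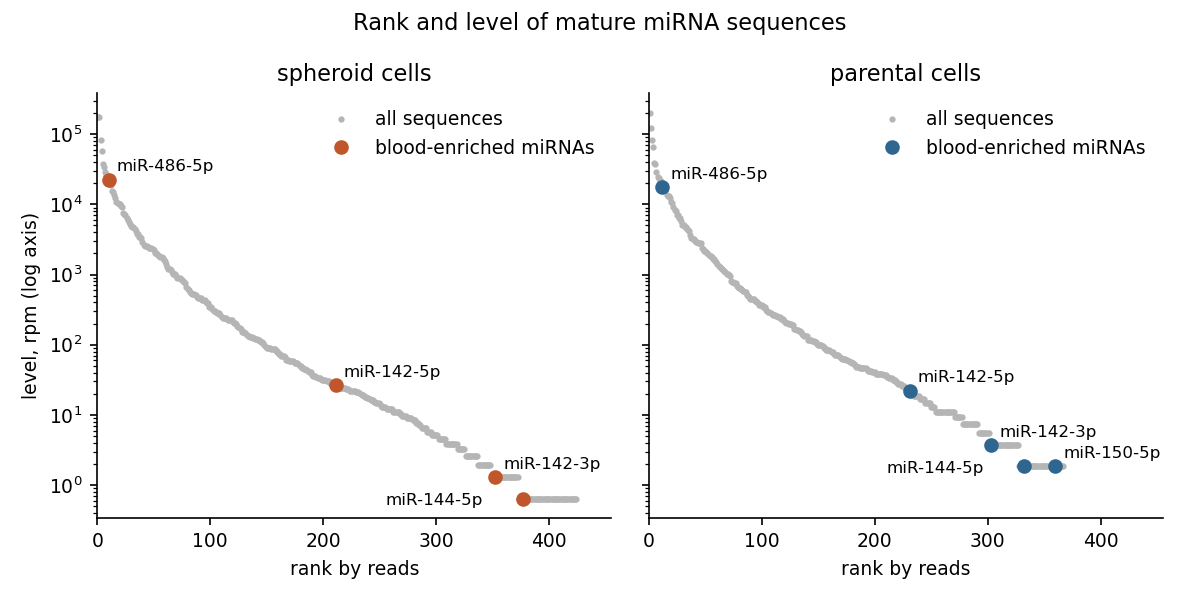
Level in rpm on a log axis against rank by reads for each mature sequence with a read, in spheroid cells (left) and parental cells (right), with the blood-enriched miRNAs as large points and ties in no set order. miR-486-5p lies at ranks 10 and 12, miR-142-5p at ranks 211 and 229, and the other members lie in the tail of 1 or 2 reads.

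The erythroid partner of miR-486-5p in blood, miR-451a, had no row. Both tables list sequences down to a single read, but whether every sequence with a read has a row was not tested, and the limits that follow hold only if a missing row means 0 reads. With 0 reads counted, the floor of 3 reads is worth 1.93 rpm in spheroid cells and 5.56 rpm in parental cells. The binomial interval for 0 reads reaches somewhat higher, to 2.38 rpm for miR-150-5p in spheroid cells. These limits hold for the reads in the tables only. The spheroid table held 97.5% of the miRBase reads counted for its library, and the parental table held 9.77%. How the parental reads were selected is not known, so absence from the whole parental library was not tested. Against the floor of 3 reads set for miR-451a, miR-486-5p had 11610 times the reads in spheroid cells and 3150 times in parental cells. The same floor holds for both arms of mir-223, for miR-144-3p, the arm of mir-144 that carries its best known activity, and, in spheroid cells, for miR-150-5p. Within a table, levels of different miRNAs also hold the unequal efficiency with which adapters join different sequences, which was not corrected.

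Set against miR-142-5p, the next member, miR-486-5p had 849 times as many reads (interval 626 to 1184) in spheroid cells and 788 times as many (451 to 1525) in parental cells. The intervals of the ratio overlapped between the cultures.

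Whether the level of the blood-enriched miRNAs differed between spheroid and parental cells was tested as in the methods of the study, with Kal's Z-test on the reads and Benjamini-Hochberg adjustment over the 436 sequences with a read. To be called, a miRNA needed a fold over 2, in either direction, and an adjusted p under 0.05. This test compares the reads of the 2 tables, not the conditions. None of the 5 members was called, against 13.8% of all sequences tested (60 of 436), with 4.82% higher and 8.94% lower in spheroid cells. Of the 5, miR-142-3p, miR-144-5p and miR-150-5p had at most 2 reads in a table, so their lack of a call is limited by depth. The level of miR-486-5p in spheroid cells was 1.28 times that in parental cells (interval 1.25 to 1.31), a difference beyond counting error by Kal's Z-test (adjusted p = 2e-102) but short of a fold of 2. Among the 183 sequences with at least 100 reads over both tables, 136 had a smaller fold, and the median fold of these sequences was 0.925. The fold rested on the table totals. The tables held 97.5% of the miRBase reads counted for the spheroid library and 9.77% of those counted for the parental library, so that total reads of the libraries, which also hold reads of every other kind, do not match the tables as denominators. With these totals as they stand, miR-486-5p had a fold of 2.83 and miR-142-5p of 2.63, and both were called higher. With each total multiplied by the share of miRBase reads in its table, a setting added after the data were seen, the folds were 0.284 for miR-486-5p and 0.263 for miR-142-5p, and both were called lower. The direction given here is thus that of shares of the table reads, and over whole libraries it turned with the denominator.

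For miR-142-5p the fold was 1.19 (interval 0.612 to 2.48), and Kal's Z-test gave an adjusted p of 0.707. No fold is given for miR-142-3p, miR-144-5p and miR-150-5p, whose reads lay under the floor of 3 reads in both tables. Summed, the 4 members other than miR-486-5p had a level of 28.3 rpm (20.6 to 38.0 rpm) in spheroid cells and 29.6 rpm (16.9 to 48.1 rpm) in parental cells, a fold of 0.956 (0.529 to 1.81). Of the folds of miR-486-5p, of miR-142-5p and of this sum, only that of miR-486-5p had an interval that lay on one side of 1.

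The reads of miR-486-5p were then divided into exact mature reads, which equal the annotated sequence, and the remaining reads, which are variants in length or sequence. On the table totals, the surplus in spheroid cells lay in the variants. Exact mature reads numbered 9776 in spheroid and 3579 in parental cells, which is 6295 and 6630 rpm of the table totals, a fold of 0.949 (interval 0.914 to 0.987). The remaining reads numbered 25053 in spheroid and 5871 in parental cells, which is 16132 and 10876 rpm, a fold of 1.48 (1.44 to 1.53). Over all sequences, reads other than exact ones took 67.3% of the spheroid and 65.1% of the parental table, a ratio of 1.03. Scaled to all exact reads in place of the table totals, miR-486-5p had a fold of 1.01 (0.975 to 1.05) with an adjusted p of 0.625 by Kal's Z-test. Other scales, by TMM and by median-of-ratios factors, multiply every fold by 1.12 and 1.15. The direction of the fold of exact reads thus depends on the scale, whereas the fold of the remaining reads stays the larger one.

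**Figure D3:**
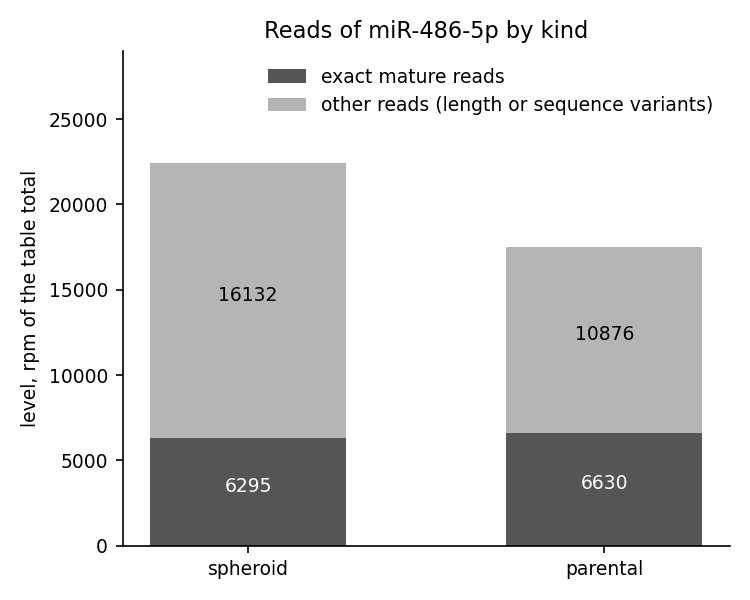
Level of miR-486-5p in rpm of the table total, in spheroid and parental cells, with exact mature reads in dark and other reads in light grey. The exact part is 6295 and 6630 rpm, and the other part is 16132 and 10876 rpm.

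Accordingly, 28.1% (interval 27.6% to 28.5%) of the miR-486-5p reads in spheroid cells were exact, against 37.9% (36.9% to 38.9%) in parental cells. In spheroid cells the exact mature share was lower by 9.80 percentage points. Fisher's exact test, adjusted over the 355 sequences with a read in both tables, gave an adjusted p of 1.39e-71. Like Kal's Z-test, it compares the reads of the 2 tables, not the conditions. In this test 12.4% of the 355 sequences were called, with 7.89% lower and 4.51% higher in spheroid cells. Over all reads, the exact share was 32.7% in spheroid and 34.9% in parental cells. The median change over the 210 sequences with at least 20 reads in each table was -0.111 percentage points, with quartiles of -3.73 and 1.64 percentage points, and 18 of them had a larger fall than miR-486-5p. Of the 53 sequences with at least 1000 reads in each table, 31 had a lower share in spheroid cells and 5 had a larger fall than miR-486-5p, namely miR-92b-3p, miR-93-5p, miR-378a-3p, miR-27b-3p and let-7b-5p, which were singled out after their values were seen. The tables do not give the ends of each read, so it cannot be said which variants took the place of the exact sequence.

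**Figure D4:**
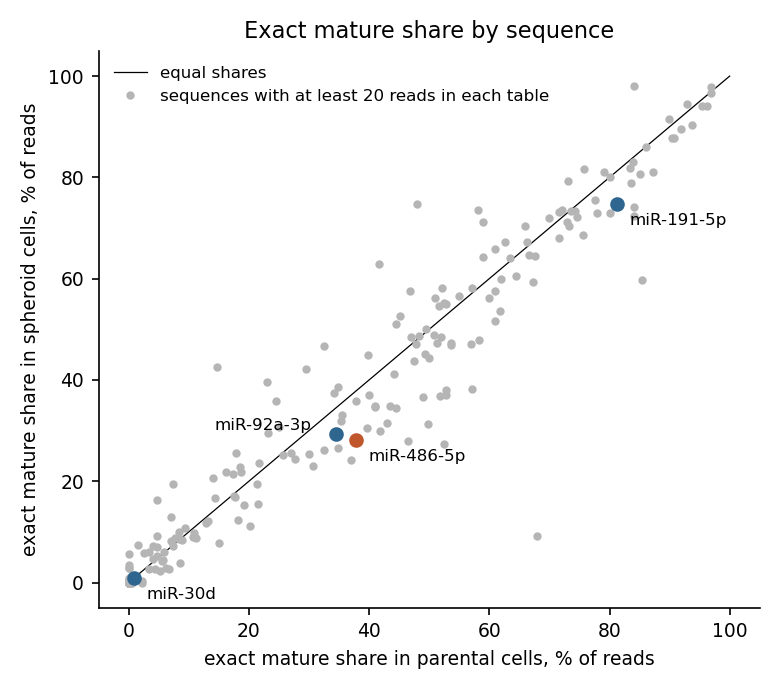
Exact mature share in spheroid cells against that in parental cells, each in % of the reads of a sequence, for the 210 sequences with at least 20 reads in each table; the line marks equal shares. miR-486-5p lies below the line at 28.1% and 37.9%, and its neighbours in level, miR-92a-3p, miR-191-5p and miR-30d, are marked.

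The exact reads of miR-142-5p were 23 of 41 in spheroid cells and 11 of 12 in parental cells. The share was 56.1% (39.7% to 71.5%) in spheroid and 91.7% (61.5% to 99.8%) in parental cells. The intervals overlapped and Fisher's exact test did not pass the threshold (adjusted p = 0.228). On exact reads alone, the fold of miR-142-5p was 0.776, the opposite direction to that of all its reads. The exact reads of miR-142-3p and miR-144-5p were 0 in both tables, so that no read of theirs equalled the annotated mature sequence, and the single read of miR-150-5p was exact.

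Because the 2 hairpins of miR-486-5p give the same mature sequence, its exact reads cannot be given to one of them. The tables count reads unique to one stem-loop, and 0 of the exact reads of miR-486-5p were unique in either table, as was so for all 36 rows that name several stem-loops. Of all its reads, 1752 in spheroid cells (5.03%) and 515 in parental cells (5.45%) were unique. In the 36 rows of several stem-loops together, 4.32% of the spheroid and 3.44% of the parental reads were unique, against 99.9% and 99.8% in the 400 rows of a single stem-loop. The unique reads of miR-486-5p, scaled to all unique reads, gave a fold of 1.18 (interval 1.07 to 1.31). All reads of the other 4 members were unique.

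In the order of abundance in spheroid cells, miR-486-5p followed miR-30d with 41313 reads and miR-92a-3p with 41084 reads. It stood before miR-191-5p with 34365 reads. The share of miR-191-5p, 2.21% (interval 2.19% to 2.24%), could not be told from the 2.24% (2.22% to 2.27%) of miR-486-5p, while miR-92a-3p and miR-30d lay above it beyond counting error. In parental cells, miR-486-5p with 1.75% (1.72% to 1.79%) of the reads stood after miR-92a-3p with 2.16% (2.12% to 2.20%). The next in rank, miR-16-5p with 9078 reads and 1.68% (1.65% to 1.72%), had an interval that touched that of miR-486-5p.

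The sequences nearest to miR-486-5p in level over both tables, by the distance of log2(rpm + 1), were miR-30d, miR-92a-3p and miR-191-5p, at distances of 0.287, 0.387 and 0.484 on the log2 scale. This likeness is a description over 2 tables. Their folds were 1.68 (interval 1.64 to 1.72) for miR-30d, 1.22 (1.20 to 1.25) for miR-92a-3p and 0.904 (0.886 to 0.923) for miR-191-5p, so that none was called and that of miR-92a-3p was the one closest to the fold of 1.28 of miR-486-5p. miR-92a-3p comes, like miR-486-5p, from several stem-loops, and its exact share was 29.3% in spheroid and 34.4% in parental cells. For miR-191-5p, the exact share was 74.7% in spheroid and 81.2% in parental cells. By the same Fisher's exact test the exact share of miR-92a-3p in spheroid cells fell by 5.09 percentage points (adjusted p = 3.77e-24). That of miR-191-5p fell by 6.50 percentage points (adjusted p = 2.04e-50). In this row of miR-30d, with 41313 reads in spheroid cells, the exact share was below 1% in both tables, at 0.874% and 0.879%. A further row of miR-30d had 198 reads in spheroid and 63 reads in parental cells, with exact shares of 51.0% and 44.4%.

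Both arms of a member were listed only for mir-142. miR-142-5p took 95.3% (interval 84.2% to 99.4%) of the reads of both arms in spheroid cells, 41 of 43, and 85.7% (57.2% to 98.2%) in parental cells, 12 of 14. Fisher's exact test over the 129 stem-loops with both arms did not call this difference (adjusted p = 0.609), while 16.3% of the stem-loops were called. For mir-144, 1 read of the 5p arm was seen in each table and 0 reads of the 3p arm. For mir-486 and mir-150, the 3p arm had no row.

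Other miRNAs of blood cells were then compared with the members. Of 8 further stem-loops fixed as a list, mir-451b and mir-4732, which neighbour mir-144 and mir-451a on chromosome 17, had no row, and neither had mir-363 of the mir-106a cluster. With mir-144 at 1 read per table, the listed reads of the erythroid cluster on chromosome 17 came to 1 in spheroid and 1 in parental cells. The other 5 stem-loops gave 9 sequences with a summed level of 3006 rpm in spheroid and 2388 rpm in parental cells. Of these 9, 2 were called higher and none lower in spheroid cells, against 4.82% of all sequences called higher. These were the arms of miR-126, which is shared by platelets and endothelium. miR-126-5p had 361 reads in spheroid and 33 reads in parental cells, a fold of 3.80 (interval 2.66 to 5.61), and miR-126-3p had 49 reads and 1 read. The lymphocyte-linked miR-155-5p had 1698 rpm in spheroid and 1504 rpm in parental cells, a fold of 1.13 (1.04 to 1.22). miR-342-3p, also linked to lymphocytes, had 880 rpm in spheroid and 647 rpm in parental cells, a fold of 1.36 (1.21 to 1.53). miR-424-5p, which is induced in monocyte differentiation, had 127 rpm in spheroid and 154 rpm in parental cells. All of these lay well under the level of miR-486-5p.

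As mir-486 is also used in muscle, the muscle miRNAs were read beside it. Of 7 muscle stem-loops, mir-1, mir-133b, mir-206, mir-208a and mir-208b had no row. The remaining 2 sequences held 16 reads in spheroid cells and 4 reads in parental cells, with 14 and 0 reads for miR-133a-3p and 2 and 4 reads for miR-499a-5p. The summed level was 10.3 rpm in spheroid and 7.41 rpm in parental cells. Neither sequence was called, against 13.8% of all sequences tested, and with so few reads this lack of a call is limited by depth.

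The cell line was read against lists of its own and of other cell types, as a description, since no other line is in the tables. The 5 stem-loops fixed for a basal breast line were all listed, with 19.7% of the spheroid reads and 22.7% of the parental reads. Most of these reads, 268854 of 305597 in spheroid cells and 108885 of 122420 in parental cells, were of miR-21-5p, which is abundant in many cell types. Of their 10 sequences, none was called higher and 3 were called lower in spheroid cells, against 4.82% and 8.94% of all sequences. These were miR-100-3p (6 reads in spheroid and 9 in parental cells), miR-222-5p (40 and 34) and miR-31-3p (171 and 127). The more abundant arms, miR-100-5p, miR-222-3p and miR-31-5p, were not called. The 5 epithelial miRNAs of the miR-200 family, which are low in mesenchymal-like lines, together had 111 rpm in spheroid and 70.4 rpm in parental cells. Most of these reads, 152 of 172 in spheroid and 31 of 38 in parental cells, were of miR-200b-3p. The others had at most 8 reads in a table, and miR-200c-3p had 0 reads in parental cells. Of liver miRNAs, miR-122-5p, the defining one, had 2 reads in spheroid and 0 reads in parental cells, although the list as a whole had 4604 rpm and 5015 rpm, most of it from miR-192-5p. The fibroblast and mural cell list had 361 rpm in spheroid and 122 rpm in parental cells. Of its 8 sequences, 2 were called higher in spheroid cells, namely miR-143-3p and miR-199a-3p/miR-199b-3p, against 4.82% of all sequences, and none was called lower. In this list, miR-143-5p and the arms of miR-145 and miR-214 had at most 3 reads in a table. The part of such other cells in the level of miR-486-5p was not tested.

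**Figure D5:**
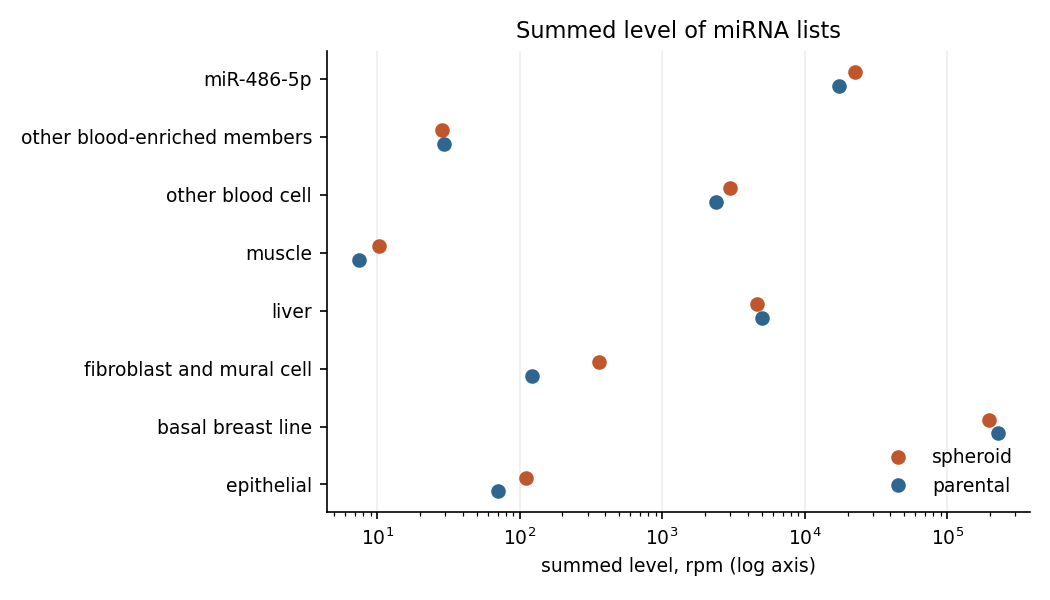
Summed level in rpm on a log axis of miR-486-5p, of the 4 other blood-enriched members and of each further list, in spheroid cells (upper point of a pair) and parental cells (lower point). miR-486-5p, at 22427 and 17507 rpm, lies above every list but that of the basal breast line, and the other members sum to 28.3 and 29.6 rpm.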

How the data were processed

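The authors used CLC Genomics Workbench 7.0 to trim adapters and keep reads of 17 to 27 nucleotides, annotated them with miRBase 19 and noncoding RNA of Ensembl GRCh37 release 57, and deposited counts: whole numbers of reads per mature sequence, with no normalization, in 1 table per condition. Further deposited columns give the exact mature and the uniquely assigned part of those counts, and 0 columns hold values of a single sample. Here the tables were joined on the mature sequence, and counts were scaled to table totals. A floor of 3 reads stood for 0 reads. Members, lists and tests were chosen with earlier results of these data known. Named were all member rows, the 3 sequences nearest to miR-486-5p, and list members that were called or had at least 100 reads. Rows were named from RefSeq (397 of 436) or their stem-loop. Genes came from GENCODE release 44 on GRCh37. Python 3.11.15, numpy 2.4.6, pandas 2.3.3, scipy 1.17.1 and matplotlib 3.10.9 were used, with R 4.3.3, edgeR 4.0.16 and DESeq2 1.42.0 for the alternatives. No test over replicates was run, as each table holds a single value per sequence. Steps were tested on simulated data.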

Additional observations from a re-analysis of the deposited data

How the results depend on the processing

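The alternatives were other scales, exact or unique reads, summed arms, filters of 10 or 50 reads, other tests and unadjusted p. Of the folds of miR-486-5p and miR-142-5p under these 14 settings, 23 kept their direction and their side of the threshold. Filters, other tests and unadjusted p do not change a fold, so under them its direction and its side of the threshold were fixed. The same held for summed arms in miR-486-5p, which had no second arm listed. The count is therefore no measure of how firm the folds are. Under exact mature reads, miR-142-5p turned to a fold of 0.776. The total reads of the libraries do not match the tables, of which the spheroid one holds 97.5% and the parental one 9.77% of its miRBase reads. With those totals, miR-486-5p (fold 2.83) and miR-142-5p (2.63) were called higher, and 2 members and 145 of all sequences were called, against 0 and 60 on table totals. With the totals multiplied by these shares, added after the data were seen, miR-486-5p (0.284) and miR-142-5p (0.263) were called lower, with 4 members and 303 of all sequences called, all of them lower. TMM and median-of-ratios factors moved every log2 fold by 0.16 and 0.20, and the fold of miR-486-5p to 1.43 and 1.47. When the spread between replicates was assumed to be 0.2 or 0.4 (coefficient of variation) in edgeR's exact test, miR-486-5p had an adjusted p of 0.96 or 1, and 21 or 0 of all sequences were called. An exact share over unique reads could not be had for miR-486-5p, which had 0 unique exact reads. No paired analysis was possible because the tables hold no values per sample, and for the same reason no sample could be left out. With at most 2 reads in a table, the members other than miR-486-5p and miR-142-5p are limited by depth.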
